A study of Mus musculus with 4 samples.

Results

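Matrix metalloproteinases (MMPs) are zinc-dependent enzymes that cleave collagens, gelatins, elastin and other matrix proteins, and tissue inhibitors of metalloproteinases (TIMPs) bind and block them. Most MMPs are made as inactive proenzymes that serine proteases, furin-like convertases or other MMPs activate. Neutrophils store collagenase (*Mmp8*) and gelatinase (*Mmp9*) in granules, and macrophages and fibroblasts make other members. Described here are the mRNA levels of 10 genes chosen by name, 8 encoding MMPs (*Mmp8*, *Mmp9*, *Mmp12*, *Mmp13*, *Mmp14*, *Mmp19*, *Mmp23* and *Mmp25*) and 2 encoding TIMPs (*Timp1* and *Timp2*), out of 25655 genes in the files. The files hold 27 genes with an *Mmp* or *Timp* symbol, and the other 17 are given after the members.

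RNA-Seq was performed on 4 libraries of neutrophils sorted from the heart on day 3 after myocardial ischemia and reperfusion (MI/R), which all groups received. They came from adult male WT mice (C57BL/6J) or *Cd300a-/-* mice on the C57BL/6 background, which lack the inhibitory receptor CD300a in all cells. Cells positive for CD45.2, CD11b and Ly6G were divided into SiglecF hi and SiglecF lo neutrophils, labelled SiglecF-positive and SiglecF-negative in the deposit, and each library pooled the cells of 8 hearts. Each group has 1 library, so there are no replicates, no P values were calculated, and the results hold for the 4 pools sequenced. Total counts were 9631901 in WT SiglecF lo, 10988619 in *Cd300a-/-* SiglecF lo neutrophils, 19278243 in WT SiglecF hi neutrophils and 17632989 in *Cd300a-/-* SiglecF hi neutrophils. Levels are TPM, transcript levels scaled for gene length and library, so they can be ordered between genes. Intervals are 95% counting intervals from the counts. They cover counting error alone. No molecular identifiers are described for the reads, so 1 molecule can be counted more than once, and variation among mice is hidden in the pools.

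The labels were checked against the targeted gene and the sorting and cell type markers. *Cd300a* was at 126.7 TPM (3024 counts) in WT SiglecF lo and 162.9 TPM (6640 counts) in WT SiglecF hi neutrophils, against 1.06 TPM (28 counts) and 0.740 TPM (27 counts) in the *Cd300a-/-* libraries. *Siglecf* was at 11.3 and 15.3 TPM in the WT and *Cd300a-/-* SiglecF lo libraries and at 354 and 405 TPM in the SiglecF hi libraries. The 6 neutrophil markers, with *S100a9* the most abundant, summed to 152901 TPM in WT SiglecF lo and 200418 TPM in *Cd300a-/-* SiglecF lo, but to 26135 and 30687 TPM in the SiglecF hi libraries of WT and *Cd300a-/-*. The SiglecF hi libraries also had more RNA of macrophage markers, described with the genes they moved with. Fewer cells of a type and less RNA per cell cannot be told apart in bulk RNA.

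The 10 genes were ordered by TPM within each library. *Mmp9* was the highest of the 10 genes in all 4 libraries and stood at position 51 of 25655 genes in *Cd300a-/-* SiglecF lo and position 112 in WT SiglecF hi neutrophils. *Mmp8* came next in both SiglecF lo libraries, whereas *Timp2* came next in both SiglecF hi libraries. *Mmp12* was the lowest in WT SiglecF lo, and *Mmp13* was the lowest in the other 3 libraries. Some neighbours in this order had overlapping intervals. These were *Timp1* with *Mmp25*, *Mmp14* with *Mmp19* and *Mmp13* with *Mmp12* in WT SiglecF lo, *Mmp19* with *Timp1* in both *Cd300a-/-* libraries, and *Mmp8* with *Mmp12* and *Mmp25* with *Mmp23* in WT SiglecF hi neutrophils.

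**Figure D1:**
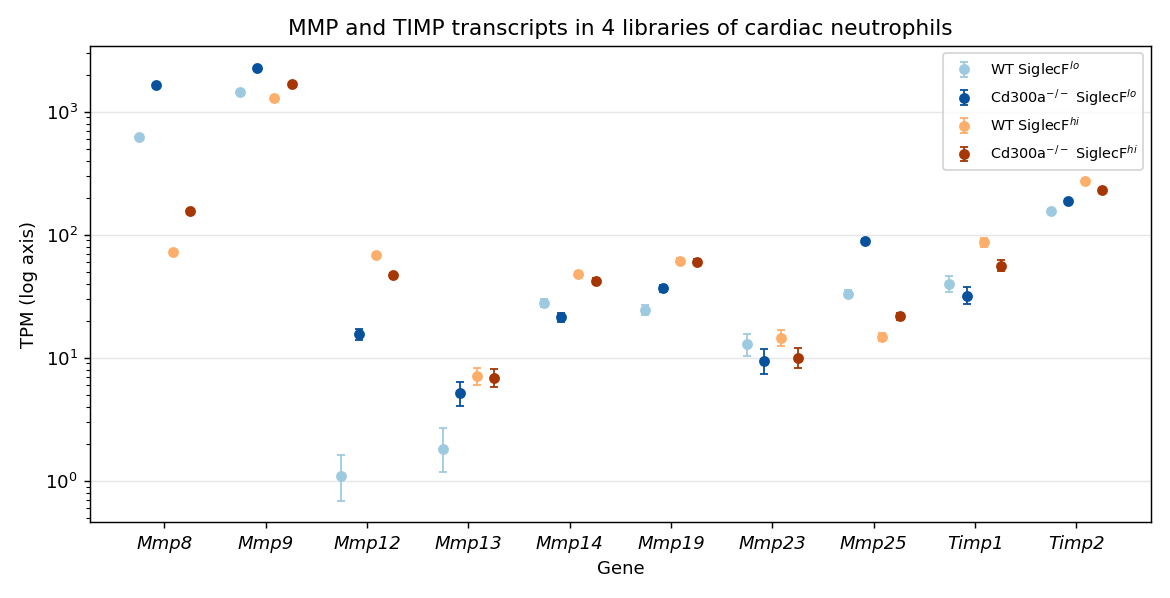
Level of each gene in TPM on a log axis (vertical) for the 10 genes (horizontal) in 4 libraries. Points are single libraries and bars are exact Poisson 95% intervals. *Mmp12* spans the widest range, from 1.09 TPM in WT SiglecF lo to 68.5 TPM in WT SiglecF hi neutrophils, whereas *Mmp23* stays between 9.35 and 14.6 TPM.

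Libraries were compared by the log2((TPM + 1) ratio), where the added 1 shrinks differences of low genes. A gene was counted as past the threshold beyond 0.5 in either direction, among genes whose TPM averaged over 10 across the 4 libraries. This limit kept 6523 genes and 9 of the 10 members. *Mmp13*, with a mean of 5.23 TPM, fell under it, and *Mmp12* passed it with 1.09 TPM in WT SiglecF lo neutrophils.

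The first comparison asks how loss of CD300a goes with MMP and TIMP mRNA in SiglecF lo neutrophils. *Mmp8*, *Mmp9*, *Mmp12*, *Mmp19* and *Mmp25* were higher in *Cd300a-/-* past the threshold, 5 of the 9 members, where 16.4% of all 6523 genes were. None of the 9 was lower past the threshold, where 19.9% of all genes were. The median ratio of the 9 members was 0.55 and that of all genes -0.02. The study drew MMP genes from these same libraries, so the count is not independent evidence of a direction.

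In SiglecF hi neutrophils, *Mmp8* and *Mmp25* were higher in *Cd300a-/-* past the threshold (2 of 9, against 3.31% of all genes). *Mmp12*, *Mmp23* and *Timp1* were lower (3 of 9, against 3.46% of all genes). The median ratio was -0.17 for the 9 members and 0.04 for all genes. Of these, *Mmp25* lay at 0.52, and at 0.48 once centred on the median of all genes, and *Mmp23* lay at -0.50, and at -0.49 with TMM-scaled CPM, so both sat at the threshold.

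The difference between the genotype ratios (SiglecF lo minus SiglecF hi) was over 0.5 for *Mmp12*, *Mmp19*, *Mmp25* and *Timp2* (4 of 9, against 13.8% of all genes) and under -0.5 for none of the 9, against 20.3% of all genes. It was not tested beyond counting error.

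**Figure D2:**
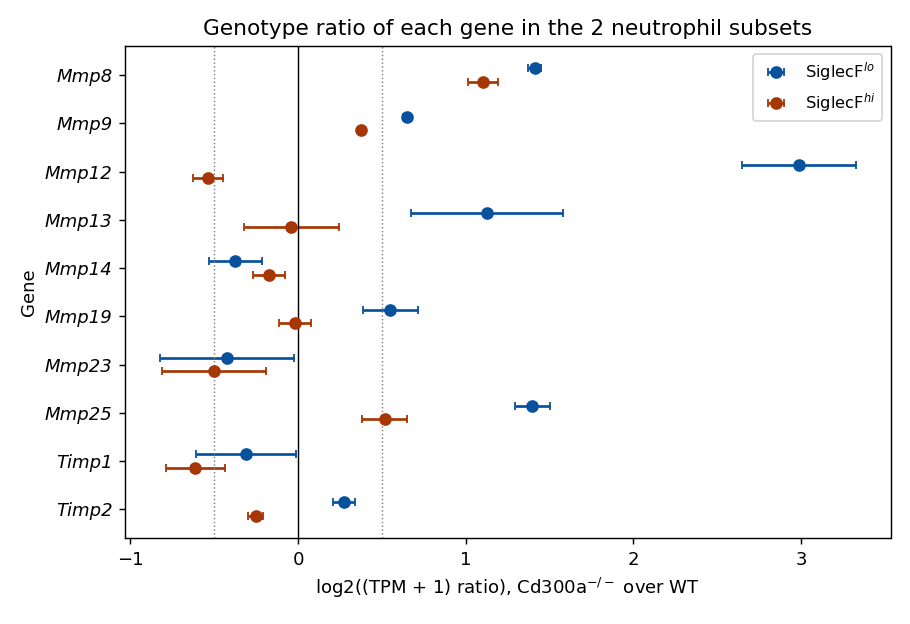
Genotype differences as the log2((TPM + 1) ratio), *Cd300a-/-* over WT (horizontal), for the 10 genes (vertical) in SiglecF lo and SiglecF hi neutrophils. Each point compares 1 library with 1 library, bars are 95% counting intervals, and dotted lines mark 0.5 in each direction. *Mmp12* lies at 2.99 in SiglecF lo and at -0.54 in SiglecF hi neutrophils, whereas *Mmp8* lies above 1 in both.

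Comparing SiglecF hi with SiglecF lo neutrophils shows how the genes are divided between the subsets. In WT, *Mmp12*, *Mmp14*, *Mmp19*, *Timp1* and *Timp2* were higher in SiglecF hi neutrophils (5 of 9, against 51.9% of all genes), and *Mmp8* and *Mmp25* were lower (2 of 9, against 7.47%). In *Cd300a-/-*, *Mmp12*, *Mmp14*, *Mmp19* and *Timp1* were higher (4 of 9, against 56.6% of all genes), and *Mmp8* and *Mmp25* were lower (2 of 9, against 7.97%). Most genes had a higher TPM in the SiglecF hi libraries, where the 10 most abundant genes took 12.3% (WT) and 11.8% (*Cd300a-/-*) of all TPM, against 22.8% and 26.7% in the SiglecF lo libraries. The median ratio of all genes was 0.53 in WT and 0.61 in *Cd300a-/-*. Relative to this shift, 19.3% of all genes were higher and 20.9% lower in WT, and 21.2% higher and 23.6% lower in *Cd300a-/-*. With TMM-scaled CPM, 20.1% were higher and 21.0% lower in WT, and 24.2% higher and 21.9% lower in *Cd300a-/-*. Relative to the shift, *Mmp12*, *Mmp19* and *Timp1* were higher and *Mmp8*, *Mmp9* and *Mmp25* lower in WT. In *Cd300a-/-*, *Mmp12* was higher and *Mmp8*, *Mmp9*, *Mmp23* and *Mmp25* were lower. The 4 comparisons share libraries, so their values are set side by side for each gene and are not independent.

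*Mmp8* (ENSMUSG00000005800, chromosome 9, 7558457 to 7568486 on GRCm39) encodes neutrophil collagenase, a specific granule enzyme that cleaves fibrillar collagen. It was at 619 TPM (7708 counts) in WT SiglecF lo, 1647 TPM (22633 counts) in *Cd300a-/-* SiglecF lo, 71.8 TPM (1527 counts) in WT SiglecF hi neutrophils and 155 TPM (2954 counts) in *Cd300a-/-* SiglecF hi neutrophils. Both *Cd300a-/-* libraries were above the WT library of their subset, and both SiglecF lo libraries were above both SiglecF hi libraries. The log2 ratio of *Cd300a-/-* to WT was 1.41 (1.37 to 1.45) in SiglecF lo neutrophils and 1.10 (1.01 to 1.19) in SiglecF hi neutrophils, which are TPM folds of 2.66 (2.59 to 2.73) and 2.16 (2.03 to 2.30). The genotype ratios differed by 0.31 (0.21 to 0.41). SiglecF hi neutrophils had 8.62-fold (8.16 to 9.11) less TPM than SiglecF lo neutrophils in WT and 10.6-fold (10.2 to 11.0) less in *Cd300a-/-*.

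*Mmp9* (ENSMUSG00000017737, chromosome 2, 164782700 to 164797770) encodes gelatinase B, which digests denatured collagen and basement membrane. It was at 1440.2 TPM in WT SiglecF lo, 2257 TPM in *Cd300a-/-* SiglecF lo, 1297 TPM in WT SiglecF hi neutrophils and 1684 TPM in *Cd300a-/-* SiglecF hi neutrophils, each from at least 24885 counts. Unlike *Mmp8*, its levels in the 2 subsets overlapped. Between genotypes, with WT as the reference, the log2 ratio was 0.65 (0.63 to 0.67) in SiglecF lo neutrophils and 0.38 (0.36 to 0.40) in SiglecF hi neutrophils, a difference of 0.27 (0.24 to 0.30). Between subsets, SiglecF hi to SiglecF lo, the log2 ratio was -0.15 (-0.17 to -0.13) in WT and -0.42 (-0.44 to -0.40) in *Cd300a-/-*, and -0.68 and -1.04 relative to the shift of all genes. The level of *Mmp9* was 2.33 times that of *Mmp8* in WT SiglecF lo and 1.37 times in *Cd300a-/-* SiglecF lo, but 18.1 times in WT SiglecF hi neutrophils and 10.9 times in *Cd300a-/-* SiglecF hi neutrophils.

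*Mmp25* (ENSMUSG00000023903, chromosome 17, 23847285 to 23864251) encodes leukolysin, a membrane-anchored MMP of leukocytes. It was at 33.1 TPM (902 counts) in WT SiglecF lo, 88.9 TPM (2671 counts) in *Cd300a-/-* SiglecF lo, 14.9 TPM (693 counts) in WT SiglecF hi neutrophils and 21.7 TPM (905 counts) in *Cd300a-/-* SiglecF hi neutrophils. The order of the libraries was that of *Mmp8*. The log2 ratio of *Cd300a-/-* to WT was 1.40 (1.29 to 1.50) in SiglecF lo neutrophils and 0.52 (0.38 to 0.65) in SiglecF hi neutrophils, a difference of 0.88 (0.71 to 1.05). SiglecF hi neutrophils had 2.22-fold (2.01 to 2.46) less TPM in WT and 4.09-fold (3.79 to 4.41) less in *Cd300a-/-*.

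These 3 genes made up most of the summed MMP level, 96.8% in WT SiglecF lo, 97.8% in *Cd300a-/-* SiglecF lo neutrophils, 87.4% in WT SiglecF hi neutrophils and 91.8% in *Cd300a-/-* SiglecF hi neutrophils. Granule genes were followed beside them. Of 8 specific granule genes, all over the mean TPM limit, 6 were higher past the threshold in *Cd300a-/-* SiglecF lo neutrophils (median 1.21), against 16.4% of all genes. In SiglecF hi neutrophils 6 were higher too (median 1.52), against 3.31% of all genes. None was lower in either subset, against 19.9% and 3.46% of all genes. Their summed level was 4961 TPM in WT SiglecF lo, 11649.8 TPM in *Cd300a-/-* SiglecF lo, 903 TPM in WT SiglecF hi neutrophils and 1669 TPM in *Cd300a-/-* SiglecF hi neutrophils. *Lcn2*, whose product lipocalin binds MMP9 in human neutrophils, was the highest by the mean of the 4 libraries. It was at 2385 and 6124 TPM in the SiglecF lo and 242 and 568 TPM in the SiglecF hi libraries of WT and *Cd300a-/-*. *Ngp*, another specific granule gene, went from 12.96 TPM in WT to 293 TPM in *Cd300a-/-* among SiglecF hi neutrophils and from 1177 to 3096 TPM among SiglecF lo neutrophils, whereas *Chil3* lay at 625 and 623 TPM in SiglecF lo neutrophils. Of 6 genes listed for gelatinase granules, 1 was higher past the threshold in SiglecF lo and none in SiglecF hi neutrophils (median 0.37 and 0.13), with none lower. The counts of higher genes were near the 16.4% and 3.31% of all genes. *Hp* was the most abundant of these, and the list summed to 4189, 5544, 2090.0 and 2294 TPM in WT SiglecF lo, *Cd300a-/-* SiglecF lo, WT SiglecF hi and *Cd300a-/-* SiglecF hi neutrophils. The granule that holds each product was not measured, and products of this list, *Hp* among them, can lie in other granules. None of 4 azurophil granule genes passed the mean TPM limit. *Prtn3* was the most abundant, their sum was between 4.50 and 17.2 TPM, and *Mpo*, *Elane* and *Ctsg* each stayed at or under 3.05 TPM. The neutrophil marker *Ly6g* also moved with *Mmp8*, from 330.4 to 889 TPM in SiglecF lo and from 11.1 to 41.9 TPM in SiglecF hi neutrophils. In the whole list of 6 neutrophil markers, none at 0, 2 were higher past the threshold in each subset, *Ly6g* and *Retnlg*, against the same 16.4% and 3.31% of all genes. The part of such differences between the sorted cells in the MMP values was not tested.

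*Mmp12* (ENSMUSG00000049723, chromosome 9, 7344381 to 7369499) encodes macrophage elastase. It was at 1.09 TPM (23 counts, with an interval from 14.6 to 34.5) in WT SiglecF lo, 15.6 TPM (362 counts) in *Cd300a-/-* SiglecF lo, 68.5 TPM (2462 counts) in WT SiglecF hi neutrophils and 46.9 TPM (1508 counts) in *Cd300a-/-* SiglecF hi neutrophils. The WT libraries held the lowest and the highest value, with both *Cd300a-/-* libraries between them. Between genotypes, with WT as the reference, the log2 ratio was 2.99 (2.65 to 3.33) in SiglecF lo neutrophils and -0.54 (-0.63 to -0.45) in SiglecF hi neutrophils. The TPM fold of 14.3 in SiglecF lo had an interval from 9.36 to 22.8, since it rests on 23 counts. SiglecF hi neutrophils had 62.7-fold (41.7 to 99.1) more TPM than SiglecF lo neutrophils in WT and 3.01-fold (2.68 to 3.38) more in *Cd300a-/-*. The gene's end overlaps *Mmp1b* on the opposite strand, which had 1 count in WT SiglecF hi and none elsewhere.

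*Mmp13* (ENSMUSG00000050578, chromosome 9, 7272514 to 7283331), a collagenase of connective tissue, was low throughout. It was at 1.82 TPM (25 counts) in WT SiglecF lo, 5.15 TPM (78 counts) in *Cd300a-/-* SiglecF lo, 7.08 TPM (166 counts) in WT SiglecF hi neutrophils and 6.86 TPM (144 counts) in *Cd300a-/-* SiglecF hi neutrophils. WT SiglecF lo stood below the other 3 libraries, whose intervals overlapped. The TPM fold of *Cd300a-/-* to WT was 2.83 (1.78 to 4.63) in SiglecF lo neutrophils and 0.969 (0.770 to 1.22) in SiglecF hi neutrophils, where a difference was not detectable at this depth. Between subsets, with SiglecF lo as the reference, the log2 ratio was 1.52 (1.11 to 1.93) in WT and 0.35 (0.02 to 0.69) in *Cd300a-/-*, and the latter flipped to -0.26 relative to the shift of all genes and to -0.15 with TMM-scaled CPM.

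*Mmp14* (ENSMUSG00000000957, chromosome 14, 54669069 to 54682821) encodes a membrane-type MMP that cleaves collagen at the cell surface and, with TIMP2, activates the MMP2 proenzyme. It was at 27.9 TPM in WT SiglecF lo, 21.3 TPM in *Cd300a-/-* SiglecF lo, 47.6 TPM in WT SiglecF hi neutrophils and 42.2 TPM in *Cd300a-/-* SiglecF hi neutrophils. It was lower in *Cd300a-/-* within both subsets, by less than the threshold. The log2 ratio of *Cd300a-/-* to WT was -0.37 (-0.53 to -0.22) in SiglecF lo neutrophils and -0.17 (-0.27 to -0.08) in SiglecF hi neutrophils. Between subsets it was 0.75 in WT and 0.95 in *Cd300a-/-*, or 0.23 and 0.34 relative to the shift of all genes.

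*Mmp19* (ENSMUSG00000025355, chromosome 10, 128626779 to 128636693) encodes a secreted MMP that digests basement membrane proteins. It was at 24.7 TPM in WT SiglecF lo, 36.6 TPM in *Cd300a-/-* SiglecF lo, 61.4 TPM in WT SiglecF hi neutrophils and 60.5 TPM in *Cd300a-/-* SiglecF hi neutrophils. The genotypes differed in SiglecF lo neutrophils, with a log2 ratio of 0.55 (0.39 to 0.72), and their intervals overlapped in SiglecF hi neutrophils, with -0.02 (-0.11 to 0.07). The difference between these ratios was 0.57 (0.38 to 0.76). *Mmp23* (ENSMUSG00000029061, chromosome 4, 155735112 to 155737841) encodes an MMP with a cysteine-rich and an immunoglobulin-like domain in place of hemopexin repeats. It was at 12.9 TPM (95 counts) in WT SiglecF lo, 9.35 TPM (76 counts) in *Cd300a-/-* SiglecF lo, 14.6 TPM (184 counts) in WT SiglecF hi neutrophils and 10.03 TPM (113 counts) in *Cd300a-/-* SiglecF hi neutrophils. Both *Cd300a-/-* libraries were the lower of their subset, with log2 ratios of -0.42 (-0.82 to -0.03) and -0.50 (-0.81 to -0.19). The ratios did not differ beyond counting error (0.08, from -0.43 to 0.58). Between subsets the log2 ratio of *Mmp23* was 0.17 in WT and 0.09 in *Cd300a-/-*, and it flipped to -0.36 and -0.52 relative to the shift of all genes and to -0.33 and -0.42 with TMM-scaled CPM.

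*Timp1* (ENSMUSG00000001131, chromosome X, 20736405 to 20740974) encodes a secreted inhibitor that also binds the MMP9 proenzyme. It was at 39.9 TPM (182 counts) in WT SiglecF lo, 32.0 TPM (161 counts) in *Cd300a-/-* SiglecF lo, 86.5 TPM (674 counts) in WT SiglecF hi neutrophils and 56.2 TPM (392 counts) in *Cd300a-/-* SiglecF hi neutrophils. Both SiglecF hi libraries were above both SiglecF lo libraries, and within each subset *Cd300a-/-* was the lower. Between genotypes, with WT as the reference, the log2 ratio was -0.31 (-0.61 to -0.01) in SiglecF lo neutrophils and -0.61 (-0.79 to -0.44) in SiglecF hi neutrophils, and the interval of their difference reached from -0.04 to 0.65. *Timp1* lies within *Syn1* on the opposite strand, which had between 54 and 160 counts. Whether the counting used strand is not given in the sources used here, so reads of overlapping genes cannot be told apart. *Mmp19* likewise overlaps *Tmem198b* (119 to 228 counts) on the opposite strand, and *Timp2* holds *Cep295nl* (7 to 28 counts) on its own strand.

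*Timp2* (ENSMUSG00000017466, chromosome 11, 118191895 to 118246566), which encodes the inhibitor that joins MMP14 and the MMP2 proenzyme, was the more abundant of the 2 inhibitors. It was at 156 TPM (3125 counts) in WT SiglecF lo, 189 TPM (4170 counts) in *Cd300a-/-* SiglecF lo, 273 TPM (9341 counts) in WT SiglecF hi neutrophils and 229 TPM (7018 counts) in *Cd300a-/-* SiglecF hi neutrophils. As for *Mmp12*, the WT libraries held the lowest and the highest value. The log2 ratio of *Cd300a-/-* to WT was 0.27 (0.21 to 0.34) in SiglecF lo neutrophils and -0.25 (-0.30 to -0.21) in SiglecF hi neutrophils. Between subsets the log2 ratio of *Timp2* was 0.80 in WT, or 0.28 relative to the shift of all genes. In *Cd300a-/-* it was 0.28, which flipped to -0.33 relative to the shift and to -0.30 with TMM-scaled CPM.

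Summed over the 8 MMPs, the level was 2160.3 TPM in WT SiglecF lo, 4080.3 TPM in *Cd300a-/-* SiglecF lo, 1583 TPM in WT SiglecF hi neutrophils and 2027 TPM in *Cd300a-/-* SiglecF hi neutrophils. The 2 TIMPs summed to 196 TPM, 221 TPM, 359.7 TPM and 286 TPM in the same order. The ratio of the sums was highest in *Cd300a-/-* SiglecF lo neutrophils, at 18.5 (17.8 to 19.1), followed by WT SiglecF lo at 11.0 (10.6 to 11.5), *Cd300a-/-* SiglecF hi at 7.10 (6.90 to 7.31) and WT SiglecF hi at 4.40 (4.29 to 4.51). The order of the libraries was another for the 5 MMPs other than *Mmp8*, *Mmp9* and *Mmp25*. Their sum relative to the TIMPs was 0.349 in WT SiglecF lo, 0.399 in *Cd300a-/-* SiglecF lo neutrophils, 0.554 in WT SiglecF hi neutrophils and 0.583 in *Cd300a-/-* SiglecF hi neutrophils. No counting intervals were calculated for the ratios of the 5 MMPs, so the order of close values among them is not settled. All ratios given here are of mRNA levels, and stored granule protein and enzyme activity were not measured in these files.

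Macrophage and fibroblast markers were followed beside *Mmp12*, *Mmp14*, *Mmp19*, *Timp1* and *Timp2*. All 10 macrophage markers were over the mean TPM limit and none was at 0. They summed to 2866 TPM in WT SiglecF lo, 2688 TPM in *Cd300a-/-* SiglecF lo, 7018 TPM in WT SiglecF hi neutrophils and 6341 TPM in *Cd300a-/-* SiglecF hi neutrophils, with *C1qb* the highest by the mean of the 4 libraries. In SiglecF hi neutrophils, 6 of 10 were higher and 1 lower in WT, near the 51.9% and 7.47% of all genes. The counts were the same relative to the shift of all genes, where 19.3% of all genes were higher and 20.9% lower. In *Cd300a-/-*, 9 were higher and none lower (56.6% and 7.97% of all genes), or 4 higher and 1 lower relative to the shift (21.2% and 23.6% of all genes). Between genotypes, 1 of 10 was higher and 2 lower in *Cd300a-/-* SiglecF lo (16.4% and 19.9% of all genes), and 1 higher and none lower in *Cd300a-/-* SiglecF hi neutrophils (3.31% and 3.46% of all genes). Of 8 fibroblast markers, 7 were over the limit, none was at 0 and *Dcn* was the most abundant. They summed to 1000.4 TPM in WT SiglecF lo, 1004 TPM in *Cd300a-/-* SiglecF lo, 2157 TPM in WT SiglecF hi neutrophils and 1531 TPM in *Cd300a-/-* SiglecF hi neutrophils. In SiglecF hi relative to SiglecF lo neutrophils, all 7 were higher in WT (51.9% of all genes), or 4 higher and none lower relative to the shift (19.3% and 20.9% of all genes). In *Cd300a-/-*, 4 of the 7 were higher and none lower (56.6% and 7.97% of all genes), or 1 higher and 1 lower relative to the shift (21.2% and 23.6%). The members lower past the threshold in *Cd300a-/-* SiglecF hi neutrophils were *Mmp12*, *Mmp23* and *Timp1*. There, 3 of the 7 fibroblast markers were lower past the threshold and none higher, against 3.46% and 3.31% of all genes. *Col1a1* was among the 3, at 186 against 291 TPM. In *Cd300a-/-* SiglecF lo neutrophils 1 of the 7 was higher and 1 lower, against 16.4% and 19.9% of all genes. The part of these markers in the MMP and TIMP values was not tested.

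The other marker lists showed smaller sums. Of 3 monocyte markers, *Ly6c2* was the most abundant, and they summed to 945, 874, 562 and 476 TPM in WT SiglecF lo, *Cd300a-/-* SiglecF lo, WT SiglecF hi and *Cd300a-/-* SiglecF hi neutrophils. Past the threshold between subsets, 1 (*F13a1*) was higher and 1 (*Ly6c2*) lower in SiglecF hi neutrophils of both genotypes. Among all genes, 51.9% were higher and 7.47% lower in WT, and 56.6% and 7.97% in *Cd300a-/-*. Relative to the shift of all genes, none was higher and 2 were lower in both genotypes, where 20.9% (WT) and 23.6% (*Cd300a-/-*) of all genes were lower. The 5 eosinophil markers, of a cell type that also carries SiglecF, summed to 2.14, 1.98, 5.53 and 6.61 TPM, with libraries ordered as for the monocyte sums. This was mostly *Ccr3*, and *Epx* was at 0 in every library. The 6 lymphocyte markers summed to between 4.20 and 11.9 TPM, with *Cd3d* highest by the mean of the 4 libraries and *Cd3e* at 0 in 3 libraries. The 5 cardiomyocyte markers, with *Myl2* highest by the mean of the 4 libraries, summed to 41.0, 25.0, 41.5 and 62.6 TPM in WT SiglecF lo, *Cd300a-/-* SiglecF lo, WT SiglecF hi and *Cd300a-/-* SiglecF hi neutrophils.

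Of the other 17 *Mmp* and *Timp* genes, only *Mmp2* and *Timp3* were over the mean TPM limit. *Mmp2*, a gelatinase of mesenchymal cells, was at 14.9 TPM in WT SiglecF lo, 27.3 TPM in *Cd300a-/-* SiglecF lo, 64.1 TPM in WT SiglecF hi neutrophils and 61.3 TPM in *Cd300a-/-* SiglecF hi neutrophils. Its log2 ratio of *Cd300a-/-* to WT was 0.83 (0.62 to 1.05) in SiglecF lo neutrophils and -0.06 (-0.16 to 0.04) in SiglecF hi neutrophils. *Timp3*, an inhibitor held in the matrix, went the other way in SiglecF lo neutrophils. It was at 39.8 TPM in WT SiglecF lo, 26.5 TPM in *Cd300a-/-* SiglecF lo, 29.0 TPM in WT SiglecF hi neutrophils and 29.4 TPM in *Cd300a-/-* SiglecF hi neutrophils, with log2 ratios of -0.57 (-0.70 to -0.43) and 0.02 (-0.09 to 0.13).

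Among the low genes, *Timp4* had 93 counts in WT SiglecF lo, 20 in *Cd300a-/-* SiglecF lo neutrophils, 69 in WT SiglecF hi neutrophils and 141 in *Cd300a-/-* SiglecF hi neutrophils, and *Mmp15*, a membrane-type MMP, had 60, 0, 23 and 43. *Timp3*, *Timp4* and *Mmp15* were thus each lowest in *Cd300a-/-* SiglecF lo neutrophils. The same library was also the lowest for *Mmp3*, *Mmp14*, *Mmp23*, *Mmp27* and *Timp1*. The 6 endothelial markers, with *Pecam1* the most abundant and none at 0, summed to 137 TPM in WT SiglecF lo, 47.1 TPM in *Cd300a-/-* SiglecF lo, 79.2 TPM in WT SiglecF hi neutrophils and 97.0 TPM in *Cd300a-/-* SiglecF hi. All 4 endothelial markers over the mean TPM limit were lower past the threshold in *Cd300a-/-* SiglecF lo neutrophils, against 19.9% of all genes. The cardiomyocyte markers given above also had their lowest sum there. Of the 3 over the limit, 1 was lower past the threshold, against the same 19.9%, and *Myl2* was lowest in WT SiglecF hi neutrophils. The part of both lists in these values was not tested. *Mmp11* had 0 and 2 counts in the SiglecF lo libraries of WT and *Cd300a-/-* and 81 and 82 in the SiglecF hi libraries. Its TPM in WT SiglecF hi was 15.8-fold what 3 counts would give in WT SiglecF lo. Against the 0 counts there, the counting interval of its fold began at 12.6. It overlaps *Chchd10* on the opposite strand, which had 47 and 0 counts in the SiglecF lo and 61 and 94 in the SiglecF hi libraries, so reads of these genes cannot be told apart either. *Mmp17* had 55, 28, 9 and 24 counts, *Mmp28* 25, 40, 50 and 58, *Mmp16* 2, 15, 33 and 27, and *Mmp24* 8, 1, 0 and 1 counts in WT SiglecF lo, *Cd300a-/-* SiglecF lo, WT SiglecF hi and *Cd300a-/-* SiglecF hi neutrophils. *Mmp24* overlaps *BC029722* (119 to 369 counts) and *Mmp28* overlaps *1700020L24Rik* (0 to 19 counts), both on the opposite strand, with the same limit. *Mmp10* was detected with 5 counts in WT SiglecF hi neutrophils alone. *Mmp1a*, *Mmp7*, *Mmp20* and *Mmp21* were at 0 in every library.

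Genes that act on MMP proteins were read from lists. The shares to hold their counts against are 16.4% of all genes higher and 19.9% lower in *Cd300a-/-* SiglecF lo neutrophils, and 3.31% and 3.46% in the SiglecF hi comparison. Of 10 activators of proMMPs, 5 were over the mean TPM limit, and 3 of these were higher past the threshold in *Cd300a-/-* SiglecF lo neutrophils with none lower (median 0.58). These were *Furin*, a proprotein convertase, at 62.0 TPM (WT) and 118 TPM (*Cd300a-/-*), *Plau*, which encodes urokinase, at 27.4 and 57.3 TPM, and *Pcsk6* at 8.99 and 14.0 TPM. In SiglecF hi neutrophils none was higher and 1 (*Pcsk6*) was lower. *Plaur*, the urokinase receptor gene, was the most abundant, at 618 and 666 TPM in SiglecF lo and 382 and 391 TPM in SiglecF hi neutrophils of WT and *Cd300a-/-*. Of 8 other inhibitors of MMPs or their activators, 4 were over the limit, and 1 was higher (*Serpinb1a*, 16.7 and 60.1 TPM) and 1 lower (*Serpine2*, 21.2 and 12.4 TPM) in *Cd300a-/-* SiglecF lo neutrophils. In SiglecF hi neutrophils 1 was higher (*Serpinb1a*, 8.99 and 14.0 TPM) and none lower. *Slpi*, which encodes a secreted inhibitor of neutrophil serine proteases, was the most abundant of the list, at 2301 and 2129.9 TPM in SiglecF lo and 419 and 402 TPM in SiglecF hi neutrophils of WT and *Cd300a-/-*. *A2m* was at 0 in every library. Of 5 genes listed for binding partners and receptors, all were over the limit. Past the threshold, 2 (*Lcn2* and *Lrp1*) were higher in *Cd300a-/-* SiglecF lo and 1 (*Lcn2*) in *Cd300a-/-* SiglecF hi neutrophils, with none lower. *Lrp1*, a receptor that clears MMP and TIMP complexes, was at 40.5 TPM (WT) and 60.9 TPM (*Cd300a-/-*) in SiglecF lo neutrophils.

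Of 13 transcription factors known to act on MMP promoters, 12 were over the mean TPM limit. In *Cd300a-/-* SiglecF lo neutrophils 3 were higher past the threshold (*Fosl1*, *Nfkb1* and *Stat3*) and none lower, against 16.4% and 19.9% of all genes, with a median of 0.10, and none passed it in SiglecF hi neutrophils (median 0.18). *Fosl1*, a subunit of AP-1, was at 23.7 TPM (WT) and 51.2 TPM (*Cd300a-/-*) in SiglecF lo neutrophils and at 9.72 and 8.88 TPM in SiglecF hi neutrophils. *Nfkb1* was at 52.5 and 75.0 TPM and *Stat3* at 101.5 and 145 TPM in WT and *Cd300a-/-* SiglecF lo neutrophils, with log2 ratios of 0.51 for each, at the threshold. *Junb* was the most abundant, between 1973 and 3038 TPM.

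*Mmp8*, *Mmp12* and *Mmp13* share a location. They lie with 7 other *Mmp* genes on chromosome 9 between 7272514 and 7699586 on GRCm39, a span of 427 kb that holds no other gene of the files. In spite of this shared location, *Mmp8* was lower and *Mmp12* higher in SiglecF hi than in SiglecF lo neutrophils in both genotypes. *Mmp27*, the next gene after *Mmp8* on the same strand, had 68 counts in WT SiglecF lo, 14 in *Cd300a-/-* SiglecF lo neutrophils, 216 in WT SiglecF hi neutrophils and 236 in *Cd300a-/-* SiglecF hi neutrophils. Its TPM in SiglecF lo neutrophils was 5.36-fold (2.99 to 10.3) lower in *Cd300a-/-*, whereas that of *Mmp8* was higher. *Mmp3*, which encodes stromelysin, was likewise lower in *Cd300a-/-* SiglecF lo neutrophils, with 65 counts in WT and 27 in *Cd300a-/-*, and had 189 and 137 counts in SiglecF hi neutrophils.

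**Figure D3:**
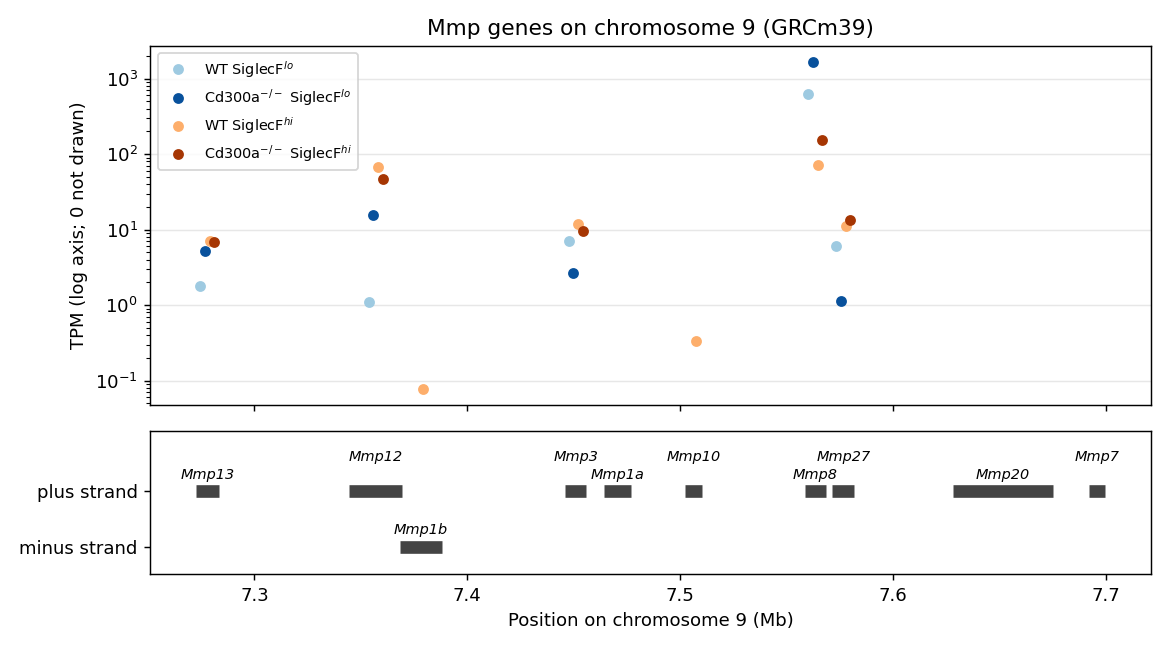
Levels (upper panel, TPM on a log axis, values of 0 not drawn) and positions (lower panel, Mb on GRCm39, bars are gene spans by strand) of the 10 *Mmp* genes on chromosome 9. Points are single libraries, set slightly apart sideways within a gene. *Mmp8* reaches 1647 TPM in *Cd300a-/-* SiglecF lo neutrophils, whereas its neighbour *Mmp27* reaches 13.6 TPM in *Cd300a-/-* SiglecF hi neutrophils.

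The promoters of these members are shown because *Mmp8* moved apart from *Mmp12* and *Mmp13* between the subsets in WT. RefSeq windows from 250 bases before to 50 bases after an annotated start were found for 8 of the 10 members, on GRCm38.p6, and not on the build of the files. They were searched on both strands for TGANTCA, the letters of an AP-1 site (the same on both strands). It occurs in 2 of the 10 windows of these 8 members, those of *Mmp13* and of the second start of *Mmp12*, and in 2565 of 32851 windows of all genes (7.81%). Among the 10 *Mmp* genes of the chromosome 9 cluster, 8 of 12 windows hold it. The windows of *Mmp8* and *Mmp27* do not. *Mmp27* had log2 ratios of SiglecF hi to SiglecF lo neutrophils of 0.80 in WT and 2.78 in *Cd300a-/-*. Relative to the shift of all genes these were 0.27 and 2.17. Whether the letters of a window go with the level of its gene was not tested. A match describes the letters of the window and is no measure of binding. The last 120 bases before each start are given 5′ to 3′, on the plus strand, with TGANTCA in capitals. They lie at chr9:7272394-7272513 (*Mmp13*), chr9:7344277-7344396 (first start of *Mmp12*), chr9:7347254-7347373 (second start of *Mmp12*) and chr9:7558309-7558428 (*Mmp8*).
Mmp13: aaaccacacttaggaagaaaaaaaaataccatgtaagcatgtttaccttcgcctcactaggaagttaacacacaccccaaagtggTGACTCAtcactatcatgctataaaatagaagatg
Mmp12, first start: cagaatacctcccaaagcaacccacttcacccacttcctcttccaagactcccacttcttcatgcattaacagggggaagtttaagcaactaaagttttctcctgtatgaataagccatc
Mmp12, second start: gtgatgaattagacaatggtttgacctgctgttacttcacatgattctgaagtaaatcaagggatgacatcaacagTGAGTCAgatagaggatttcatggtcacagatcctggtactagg
Mmp8: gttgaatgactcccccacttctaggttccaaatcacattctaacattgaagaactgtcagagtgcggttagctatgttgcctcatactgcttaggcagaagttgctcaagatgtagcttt
The match in *Mmp13* begins 35 bases and that of *Mmp12* 44 bases before the start.

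The genes nearest to each member in pattern were taken by the Euclidean distance of log2(TPM + 1), centred over the 4 libraries, among the 6522 other genes over the limit. For *Mmp8*, the nearest was *Lcn2* (distance 0.15), followed by *Wfdc21* (0.56) and *Padi4* (0.63). *Mmp12* had no gene this close to it, and its nearest were *Apex1* (0.77), *Gm49369* (1.01) and *Prss2* (1.05). For *Mmp25* they were *Tarm1* (0.17), *Dgat1* (0.19) and *Sap25* (0.26). *Mmp9* lay nearest to *Arrdc3* (0.02), *Baz2b* (0.07) and *Csf2rb* (0.08), and *Mmp14* to *Ube2g1* (0.02), *Tifab* (0.03) and *Tlr9* (0.03). *Mmp19* lay nearest to *Pkn2*, *Ddi2* and *Lypla1* (0.04 each), *Mmp23* to *Zmat5* (0.11), *Whamm* (0.11) and *Cenpa* (0.13), *Timp1* to *Angptl2* (0.07), *Tpra1* (0.08) and *Dse* (0.11), and *Timp2* to *Iqgap2*, *Rab9* and *Stx2* (0.09 each).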

How the data were processed

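The authors sorted neutrophils, prepared poly(A)-selected libraries with the NEBNext Ultra II kit, sequenced them and calculated expression with CLC Genomics Workbench. The submitters' processing notes name GRCm39, and the aligner settings and annotation release are not given in the sources used here. The authors deposited raw counts per gene, and TPM, which are scaled for gene length and library. RPKM and CPM columns were not used.

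The members and lists were chosen with earlier results of these data known. Groups came from the labels, with 1 library per group, so no test compared conditions. For each gene, the log2((TPM + 1) ratio) of 2 libraries was calculated with a 95% counting interval (Poisson error of both counts, delta method). TPM folds had exact conditional binomial intervals, and single counts exact Poisson intervals. A group at 0 was given a floor of 3 counts so that a fold could be calculated. The ratio of summed levels had a delta-method interval. Genes whose TPM averaged over 10 were counted past 0.5 on the log2 scale.

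The genes named are the 10 members, other *Mmp* and *Timp* genes with over 3 counts in a library (those at or under it only for their counts), the 3 genes nearest in pattern to each member over the limit, and the genes of the lists. Alternatives were a pseudocount of 0.1, a mean TPM over 1, TPM over 10 in at least 1 library, no filter, a log2 threshold of 1, TMM-scaled CPM from the counts (edgeR 4.0.16 in R 4.3.3), centring on the median of all genes, and sums over all *Mmp* and *Timp* genes. Ratios and intervals were also calculated on simulated data, and the outcome is not reported here. Python 3.11.15, numpy 2.4.6, pandas 2.3.3, scipy 1.17.1 and matplotlib 3.10.9 were used. Promoter sequences came from RefSeq (GRCm38.p6).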

Additional observations from a re-analysis of the deposited data

Results flagged for a closer look

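Members were listed here if *Cd300a-/-* and WT differed in opposite directions in the 2 subsets, with both counting intervals off 0. For *Mmp12*, the log2 ratio of *Cd300a-/-* to WT was 2.99 in SiglecF lo neutrophils and -0.54 in SiglecF hi neutrophils, a difference of 3.52 (3.17 to 3.88). The difference lay outside this interval, at 4.26, with a pseudocount of 0.1 and, at 3.99, with TMM-scaled CPM. For *Timp2*, the ratios were 0.27 and -0.25, a difference of 0.52 (0.44 to 0.60), with neither ratio past the threshold of 0.5. These were 2 of the 9 members over the mean TPM limit (22.2%), and 1029 of all 6523 genes (15.8%) met the same condition. With 9 members, this is near the share of all genes and does not set the members apart. The difference was not tested, because each group has 1 library and the intervals cover counting error only.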

How the results depend on the processing

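No paired analysis was done, and no library could be left out of a comparison because each group has 1 library. Of 50 log2 ratios and differences of the members, 22 left their counting interval with TMM-scaled CPM, 22 with centring on the median and 3, each of *Mmp12*, with a pseudocount of 0.1. No member past the threshold changed direction under a pseudocount of 0.1, TMM-scaled CPM or centring on the median. A log2 threshold of 1 lowered the members past it from 5 to 3 (*Cd300a-/-* against WT in SiglecF lo neutrophils), from 5 to 1 (the same in SiglecF hi), from 6 to 3 (SiglecF hi against SiglecF lo in *Cd300a-/-*) and from 7 to 5 (the same in WT), with a stricter limit as the reason by construction. Among all genes it lowered the 4 counts from 2367 to 611, 442 to 46, 4212 to 1975 and 3873 to 1520. A mean TPM over 1, with 11472 genes, raised the 4 counts to 5178, 1716, 7619 and 7317, and no filter, with 25655 genes, to 6476, 2674, 8996 and 8813. A TPM over 10 in at least 1 library raised 442 to 709. With TMM-scaled CPM, 6 members were past the threshold between subsets in WT and 4 in *Cd300a-/-*, and with centring 6 and 5. Over all *Mmp* and *Timp* genes, the ratio of summed MMP to summed TIMP levels moved to 9.19 in WT SiglecF lo, 16.6 in *Cd300a-/-* SiglecF lo and 6.67 in *Cd300a-/-* SiglecF hi neutrophils, and the order of the libraries was the same. Depth limits *Mmp12* and *Mmp13* in WT SiglecF lo neutrophils, with 23 and 25 counts.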
